A study of Mus musculus with 2 samples.

Results

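The prostaglandin synthases and receptors described here are 10 of the 32285 genes counted: the cyclooxygenases Ptgs1 and Ptgs2, the terminal synthases Ptgds, Hpgds, Ptges and Ptgis, the degrading enzyme Hpgd, and the receptors Ptger2, Ptger4 and Ptgfr. They were found by gene symbol, and the set was chosen by its measured UMI levels, above all the Ptgds ratio between the libraries in mesenchymal cells, which was among the lowest of all genes. That ratio is therefore given as a description. Cells were released by collagenase from the edge of a 1.8 mm full-thickness defect in the frontal bone of C57BL/6 mice (C57BL/6J in the study's methods), 7 days after injury, and counted by droplet 3′ single-cell RNA sequencing. One library came from mice given gambogic amide (GA), a small-molecule agonist of the nerve growth factor receptor TrkA, and one from control mice given the vehicle. Per the labels, GA was injected into the peritoneum daily at 1.2 mg/kg in 100 µL of 10% DMSO, starting 24 h before injury and going on for 1 week (the study's methods state another dose), and the control mice received 10% DMSO. Each library pooled 5 male wild-type mice of 2 months, so each group was 1 sample, no test between GA and control was possible, and every interval covers counting error only.

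Prostaglandins are lipid signals made from arachidonic acid. Phospholipases free the acid from membranes, a cyclooxygenase turns it into prostaglandin H2, and a terminal synthase then makes prostaglandin D2, E2, F2α, prostacyclin or thromboxane. Ptgs1 is the cyclooxygenase that many cells keep on, whereas Ptgs2 is switched on by injury and cytokines and is needed for normal fracture repair. Prostaglandin E2 acts on bone-forming cells through the receptors encoded by Ptger2 and Ptger4.

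After filtering, 7569 control and 8383 GA cells remained, with medians of 16560 and 10878 unique molecular identifiers (UMIs, one per captured transcript). They fell into 35 clusters, of which 32 were assigned to 15 classes by fixed marker lists, and 3 clusters (430 cells) stayed unnamed. A class name stands for likeness to those markers. The libraries differed in make-up: neutrophils were 52.9% of GA and 27.6% of control cells, and mesenchymal lineage cells 10.4% and 23.8%. Levels are therefore given within a class, as CPM, the UMIs of the gene per 1000000 UMIs of the class. A member was counted as higher or lower when its CPM differed by 2-fold or more and it had at least 50 UMIs over both libraries. Only 15 cell barcodes were shared by both sets of kept cells, and they held 0 of the 3119 Ptgds UMIs.

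The members were spread over different cell classes. The mesenchymal lineage held 99.1% of all Ptgis UMIs, 88.8% of Ptgds, 76.2% of Ptges and 51.7% of Ptgs1. Of the UMIs of all genes it held 98803672 of 185567261 in control and 46591183 of 159608804 in GA. Ptgs1, Ptgds and Ptgfr were not at their highest level there. Over both libraries Ptgs1 had 30.9 CPM in the lineage, near the 32.6 CPM of neutrophils, and 265 CPM in megakaryocytes or platelets. Ptgds had 19.1 CPM in the lineage and 127 CPM over the unnamed clusters. Ptgfr had 5.54 CPM in the lineage and 130 CPM in basophils. Macrophages and monocytes held 85.7% of Hpgds. Ptgs2 had over 100 CPM in both libraries in mesenchymal, macrophage or monocyte, dendritic, neutrophil and basophil cells, and at most 15 CPM in B, T or NK, plasmacytoid dendritic and HSC or progenitor cells.

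**Figure D1:**
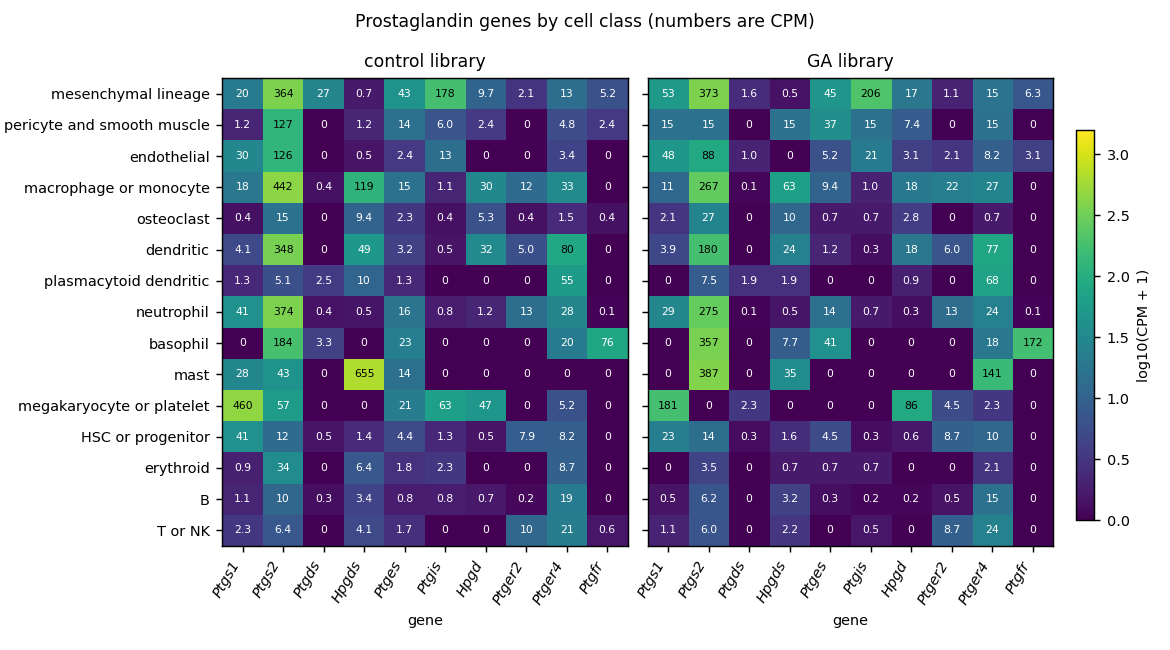
Level of each of the 10 genes (columns) in 15 cell classes (rows) in the control and GA libraries, as CPM (printed) and log10(CPM + 1) (colour). Ptgis stands out in mesenchymal cells (178 and 206 CPM), Hpgds in macrophages and control mast cells, and Ptgfr in basophils with 75.6 CPM in control and 172 CPM in GA.

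In the mesenchymal lineage (1801 control and 869 GA cells, median 50584 and 50015 UMIs), Ptgds was lower and Ptgs1 higher in GA. These were 2 of 10 members, 1 in each direction. The set was chosen with the low Ptgds ratio known, so that call was fixed beforehand and the count is a description. Over all 15681 genes with at least 50 UMIs in this lineage, 5.45% passed the same 2-fold limit in either direction, 2.83% higher and 2.61% lower. The median log2 ratio was 0.14 over the members and -0.01 over all genes.

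**Figure D2:**
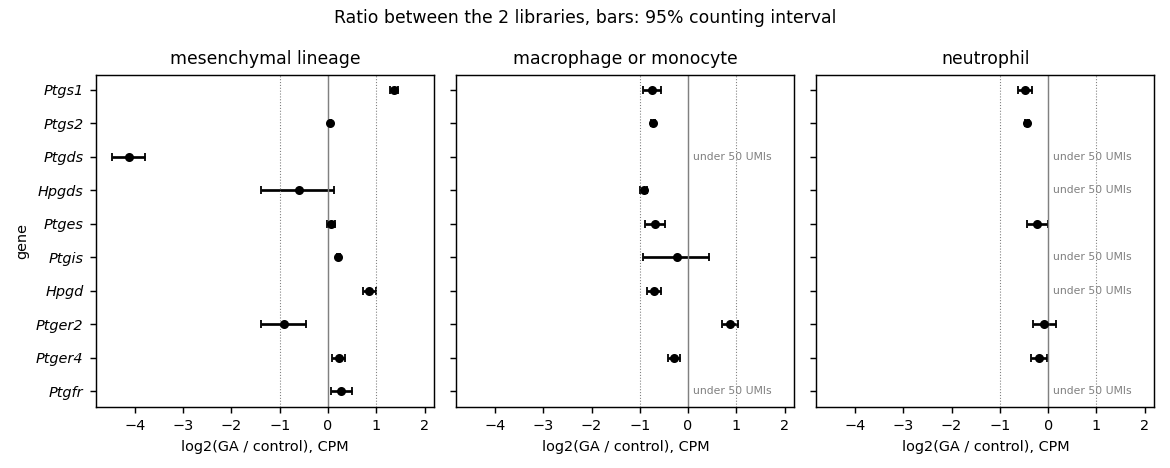
Log2 ratio of GA to control CPM for each gene in the 3 largest classes, with 95% counting intervals as bars and dotted lines at a 2-fold difference. In mesenchymal cells Ptgds lies at -4.12 and Ptgs1 at 1.37, while in macrophages and monocytes 7 of the 8 genes plotted lie below 0.

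Ptgds encodes the lipocalin-type prostaglandin D2 synthase, a carrier protein and enzyme abundant in the meninges (Ensembl gene ENSMUSG00000015090, GRCm38 chr2:25466709-25470046, minus strand). It had 2697 UMIs in control and 73 in GA mesenchymal cells, or 27.3 CPM (95% counting interval 26.3 to 28.3) and 1.57 CPM (1.23 to 1.97). The log2 ratio of -4.12 (-4.48 to -3.79) corresponds to 17.4-fold more in control, and it was the fifth lowest value among the genes of this lineage. The cells behind this value were few.

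Of the 1801 control cells 42 held a Ptgds UMI, and of the 869 GA cells 11 did. The shares, 2.33% (exact binomial interval 1.69 to 3.14) and 1.27% (0.634 to 2.25), had overlapping intervals. For comparison, 0.856% of control and 0.153% of GA macrophages or monocytes, which should lack the gene, held a Ptgds UMI at medians of 21387.5 and 21635 UMIs. When each mesenchymal cell was thinned to 2000 UMIs the shares were 0.833% (0.467 to 1.37) and 0.461% (0.126 to 1.18), after 0 control and 2 GA cells had been left out as too shallow.

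The positive cells differed in how much Ptgds they carried. In control, 11 cells with at least 10 UMIs held 2624 of the 2697 UMIs, and the 3 highest carried 1198, 509 and 480. In GA, 4 cells reached 10 UMIs and held 59 of the 73, with a highest count of 22. As a level within 1 cell, the highest was 20088 CPM in control and 3296 CPM in GA. Without the cells of at least 10 Ptgds UMIs in both libraries the log2 ratio was -1.30. The counting interval of the class ratio treats UMIs as independent, and with most of them in 11 cells the uncertainty from which cells were sampled is larger than it shows.

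**Figure D3:**
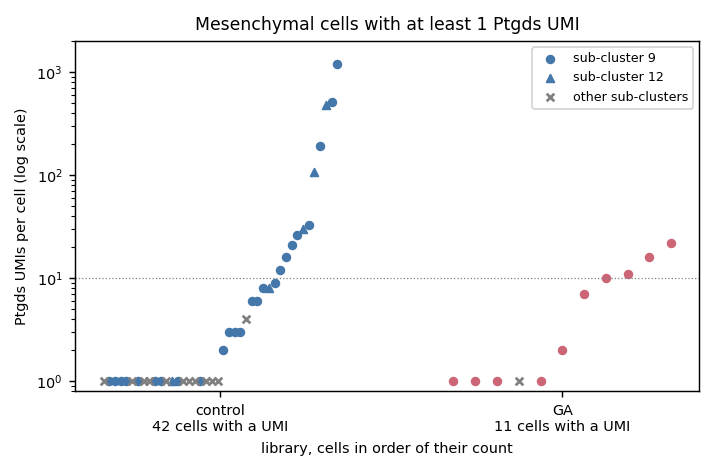
Ptgds UMIs (log scale) in each mesenchymal lineage cell with at least 1, in the control (42 cells) and GA (11 cells) libraries, cells ordered by count and marked by sub-cluster, with a dotted line at 10 UMIs. The control library holds 5 cells above 100 UMIs, and the highest GA cell has 22.

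When the lineage was divided into 14 sub-clusters, without use of the members, nearly all Ptgds fell in 2 of them. Sub-cluster 9 (107 control and 26 GA cells) was led by Slc47a1, Shisa3 and Cldn11 besides Ptgds, and sub-cluster 12 (25 control cells and 1 GA cell) by Ptgds and Ptprt. Both were nearest to the fibroblastic progenitor markers, and each carried part of the list of 6 meningeal fibroblast markers. Cldn11, a tight junction protein, was the one that set both apart, at 259 and 203 CPM against no more than 37.3 CPM in any other sub-cluster. In sub-cluster 9 Slc47a1 was at 242 CPM, Crabp2 at 148 CPM and Foxc2 at 47.7 CPM, with Aldh1a2 at 3.24 CPM and Slc6a13 at 0. In sub-cluster 12 Aldh1a2 was at 90.6 CPM and Slc6a13 at 58.4 CPM, with Slc47a1 at 0, and Crabp2 (13.1 CPM) and Foxc2 (19.1 CPM) lay below the 131 and 26.7 CPM of sub-cluster 5, which was led by Eln. All 11 control and all 4 GA cells with at least 10 Ptgds UMIs held Cldn11 and Col1a1, the main bone and connective tissue collagen, as did 104 and 121 of the 121 other control cells of these sub-clusters. Slc47a1 was found in 7 of the 11 control and 4 of the 4 GA cells, and Aldh1a2 and Slc6a13 each in 2 of 11 and 0 of 4. The Eln-rich fibroblastic progenitor sub-cluster 5, by contrast, had 0.585 CPM of Ptgds.

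The share of cells in sub-clusters 9 and 12 and the summed Ptgds level of these cells were lower in GA. A few control cells carried most of that level. The 2 sub-clusters made up 7.33% of control (132 cells, 95% interval 6.17 to 8.63) and 3.11% of GA mesenchymal cells (27 cells, 2.06 to 4.49). The lower share was not particular to them. The other sub-cluster named by the fibroblastic progenitor markers, the Eln-rich sub-cluster 5 with little Ptgds, also had a lower share in GA. It was 12.4% of control (224 cells) and 2.76% of GA mesenchymal cells (24 cells). Sub-clusters 9 and 12 were picked as the 2 with the highest Ptgds level, so comparing that level between the libraries is a description. Single control cells held 1198, 509 and 480 of the 2682 control UMIs there. The Ptgds level of the 2 sub-clusters was 566 CPM (545 to 588) in control and 81.2 CPM (63.5 to 102) in GA. Within sub-cluster 9 alone it was 545 and 84 CPM, a log2 ratio of -2.70 (-3.06 to -2.36), although a UMI was found in 25 of 107 control cells (23.4%, 15.7 to 32.5) and 10 of 26 GA cells (38.5%, 20.2 to 59.4). With the sub-clusters of GA weighted to their control shares, the log2 ratio of the lineage was -3.09. Here and below, these weights are shares of the control UMIs, not of the control cells. That weighting gives the 1 GA cell of sub-cluster 12, which had 0 Ptgds UMIs, the whole control share of its sub-cluster. The summed level of the 6 meningeal fibroblast markers in the lineage was 86.3 CPM in control and 72.5 CPM in GA, and none was at 0. That sum takes in Crabp2, which was also at 131 CPM in sub-cluster 5 and 96.6 CPM in sub-cluster 6. Cldn11, which set the 2 Ptgds-rich sub-clusters apart, was at 17.4 CPM in control and 5.56 CPM in GA mesenchymal cells. Whether how much meningeal tissue came with the bone edge played a part was not tested.

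Outside the lineage, 298 control and 5 GA Ptgds UMIs lay in one unnamed cluster of shallow cells (176 control and 111 GA cells, median 2048 UMIs), where 7 control and 4 GA cells held them. This cluster, led by Bcas1, Cxcl12 and Limch1, had 329 CPM of Ptgds in control and 13.1 CPM in GA. The genes whose level over the 35 clusters was most like that of Ptgds, among 13438 genes with at least 500 UMIs, were Lrrc7 (Pearson r = 0.92), Cldn11 (r = 0.91) and Galnt13 (r = 0.91). These correlations describe clusters that share 2 libraries. In mesenchymal cells Lrrc7 was at 8.29 CPM in control and 1.35 CPM in GA, Cldn11 at 17.4 and 5.56 CPM, but Galnt13 at 2.66 and 4.87 CPM.

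Ptgs1, cyclooxygenase 1 (GRCm38 chr2:36230426-36252272, plus strand), had 2021 UMIs in control and 2466 in GA mesenchymal cells. The level was 20.5 CPM (19.6 to 21.4) in control and 52.9 CPM (50.9 to 55.1) in GA, 2.59-fold more and a log2 ratio of 1.37 (1.29 to 1.46). This was higher than the value of 98.5% of the genes of the lineage. Unlike Ptgds it was spread over many cells: 519 control cells (28.8%) and 382 GA cells (44.0%) held a UMI, and the 5 highest cells held 9.5% and 10.9% of the UMIs. Thinned to 2000 UMIs, 2.94% (2.21 to 3.83) of control and 7.04% (5.42 to 8.95) of GA cells did.

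Most Ptgs1 came from sub-cluster 2, which was led by Dmkn, Adamts19 and Barx2 and held 57.9% of the UMIs of the lineage. There its level was 86.5 CPM in control and 155 CPM in GA. In sub-cluster 3, led by Pi16 and Clec3b, genes of adventitial fibroblasts, it was 17.7 and 55.2 CPM, a log2 ratio of 1.64 (1.35 to 1.93). The interval lay above 0 in 8 of the 14 sub-clusters and below 0 in none. Osteoblasts of sub-cluster 8 (led by Bglap and Ibsp) had only 2.03 and 0.74 CPM. With GA weighted to the control shares of the sub-clusters, the log2 ratio was 0.91, under the 2-fold limit.

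Neutrophil RNA moved with this difference, since the 8 neutrophil markers summed to 227 CPM in control and 1681 CPM in GA mesenchymal cells, with none at 0. The Ptgs1 level of GA neutrophils themselves was 29.5 CPM, below that of GA mesenchymal cells. One small sub-cluster (29 control and 27 GA cells) was led by neutrophil genes such as S100a8 and Ngp. Its Ptgs1 level was 22.5 CPM in control and 109 CPM in GA, and without it the log2 ratio of the lineage was 1.33. The part of neutrophil RNA in the Ptgs1 ratio was not tested.

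**Figure D4:**
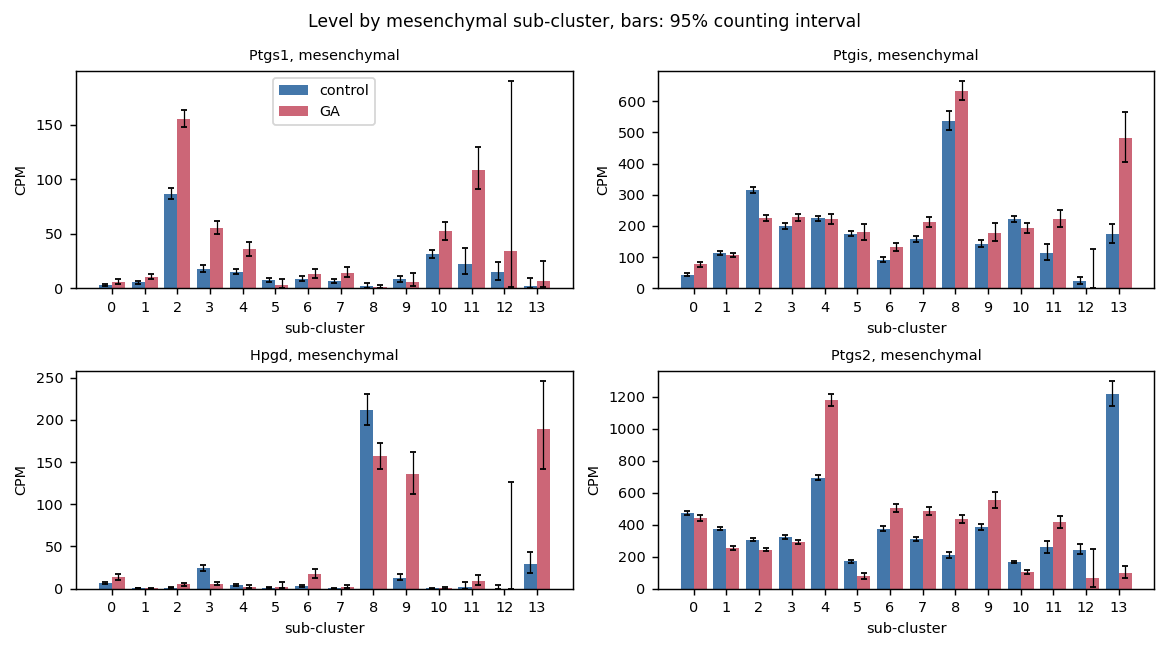
CPM of Ptgs1, Ptgis, Hpgd and Ptgs2 in the 14 mesenchymal sub-clusters of the control and GA libraries, with 95% counting intervals as error bars. Ptgs1 is higher in GA where it is abundant (sub-cluster 2, 86.5 and 155 CPM), Ptgis is highest in osteoblasts (sub-cluster 8, 538 and 634 CPM), and Hpgd and Ptgs2 differ in both directions.

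Ptgs2, cyclooxygenase 2 (GRCm38 chr1:150100031-150108227, plus strand), was abundant in mesenchymal cells at nearly the same level in both libraries, 364 CPM (361 to 368) in control and 373 CPM (368 to 379) in GA. A UMI was present in 82.2% of control and 76.1% of GA cells. The log2 ratio of 0.04 (0.01 to 0.06) was the balance of sub-clusters that went opposite ways: the interval lay above 0 in 6 and below 0 in 7 of the 14. In sub-cluster 4, led by Pi16, C3 and the neutrophil attractants Cxcl5 and Cxcl3, it was 694 CPM in control and 1181 CPM in GA. In osteoblasts of sub-cluster 8 it was 211 and 435 CPM. In the other osteoblast sub-cluster, 13, (15 control and 8 GA cells, led by Ibsp and Ifitm5) the values were 1217 and 96.1 CPM. The dividing sub-cluster 10 had 166 and 104 CPM.

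The terminal synthases of prostaglandin E2 and prostacyclin hardly differed between the libraries in mesenchymal cells. Ptges, the inducible microsomal prostaglandin E synthase, was at 43.3 CPM (42.0 to 44.6) in control and 45.1 CPM (43.2 to 47.1) in GA, and 75.8% and 75.6% of the cells held a UMI. Ptgis, the prostacyclin synthase, was at 178 CPM (176 to 181) and 206 CPM (202 to 210), a log2 ratio of 0.21 (0.18 to 0.25). Within the lineage their levels parted in osteoblasts. Sub-cluster 8 had the highest Ptgis level, 538 CPM in control and 634 CPM in GA, and almost no Ptges, 1.22 and 1.48 CPM, against 28.97 CPM or more over both libraries in every other sub-cluster except sub-cluster 13 with 15.5 CPM over both libraries. Over both libraries the Ptgds-rich sub-cluster 9 had the most Ptges, 115 and 104 CPM.

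Hpgd, the 15-hydroxyprostaglandin dehydrogenase that inactivates prostaglandins, was at 9.67 CPM (9.06 to 10.3) in control and 17.5 CPM (16.3 to 18.7) in GA mesenchymal cells, a log2 ratio of 0.85 (0.72 to 0.99). The sum was led by osteoblasts, as sub-cluster 8 held 53.4% of the UMIs and had 212 CPM in control and 157 CPM in GA. This sub-cluster was 3.44% of control and 8.63% of GA mesenchymal cells, and the osteoblast markers summed to 1926 and 3612 CPM in the lineage. Weighted to control shares the log2 ratio of Hpgd was 0.65. Outside them it was 13.0 and 135 CPM in the meningeal marker sub-cluster 9, and 24.3 and 5.57 CPM in the Pi16 sub-cluster 3. The sub-clusters thus differed in both directions, 6 with an interval above 0 and 2 below. The 5 highest cells held 37.6% of control and 40.4% of GA UMIs.

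The receptors were low in mesenchymal cells. Ptger4, one receptor of prostaglandin E2, was at 13.2 CPM (12.5 to 13.9) in control and 15.4 CPM (14.3 to 16.6) in GA. Ptger2, the other, had 204 and 51 UMIs, or 2.06 CPM (1.79 to 2.37) and 1.09 CPM (0.815 to 1.44), a log2 ratio of -0.92 (-1.39 to -0.47). It passed 2-fold with no doublets removed (-1.07) and without the 5 cells with the most UMIs of the gene in each library (-1.14). Thinning, which leaves few of its UMIs, gave -1.27. The ratio was -0.57 weighted to control sub-cluster shares and -0.16 as a mean over cells. Ptgfr, the receptor of prostaglandin F2α, was at 5.19 CPM (4.75 to 5.66) and 6.29 CPM (5.59 to 7.05) and had 0 UMIs in osteoblast sub-cluster 8. The synthase Hpgds, with 68 and 21 UMIs, was near background at 0.688 and 0.451 CPM.

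Of the 27 other genes of the pathway (phospholipases, further synthases, receptors, transporters and reductases), 24 had at least 50 UMIs in mesenchymal cells, 2 were higher in GA by 2-fold or more and 0 were lower, with a median log2 ratio of 0.08. Over all genes of the lineage 2.83% were higher and 2.61% lower. Pla2g5, a secreted phospholipase, had 90 UMIs in control and 111 in GA, 0.911 and 2.38 CPM, a log2 ratio of 1.39 (0.97 to 1.805). Akr1c18, a reductase that can make prostaglandin F2α, had 108 and 170 UMIs, 1.09 and 3.65 CPM, a log2 ratio of 1.74 (1.38 to 2.10). The cytosolic phospholipase Pla2g4a was at 54.6 and 45.9 CPM, and the prostaglandin transporter Slco2a1 at 45.0 and 41.8 CPM.

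In macrophages and monocytes (1752 control and 1307 GA cells) 0 of the 8 members with at least 50 UMIs passed the 2-fold limit, where 8.48% of 12835 genes did (5.86% higher and 2.63% lower), but 7 of the 8 were lower in GA. Their median log2 ratio was -0.70, and that of all genes was 0.11. Markers of other cell types moved with these values. The neutrophil markers summed to 464 CPM in control and 3195 CPM in GA, and the HSC or progenitor markers to 62.0 and 738 CPM. None was at 0. Some unnamed sub-clusters of the class had such leading genes. Ctsg and Prtn3 were among those of sub-clusters 4 (65 control and 181 GA cells) and 10 (71 and 102). Sub-cluster 15 (2 and 15 cells) was led by S100a8 and S100a9. The part of these markers and sub-clusters in the members' ratios was not tested. Ptgs2 was at 442 CPM (435 to 448) in control and 267 CPM (262 to 273) in GA, a log2 ratio of -0.72 (-0.76 to -0.69), lower than that of all but 5.69% of genes. The share of cells with a UMI was 53.8% (51.4 to 56.1) and 50.8% (48.1 to 53.5), with overlapping intervals. Ptgs1 (18.04 and 10.8 CPM), Ptges (15.1 and 9.40 CPM) and Hpgd (30.1 and 18.4 CPM) had log2 ratios of -0.74, -0.69 and -0.71. These ratios depended on which cells were kept and on the clustering and naming, which were run again after each other filter. With a mitochondrial share of up to 10% in place of 15%, the log2 ratio was 0.14 for Hpgd, -0.29 for Ptgs1 and -0.56 for Ptgs2, and that of Ptgs2 was -0.48 with no doublets removed and -0.40 at a finer clustering.

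Ptgs2 was unevenly divided among the 16 sub-clusters of these cells. Sub-cluster 8, led by Ccl24, Mmp12 and Cxcl3 and nearest to the Arg1 macrophage markers, held 29.6% of the UMIs at 1912 CPM in control and 930 CPM in GA. In sub-cluster 6, the other one named by the Arg1 macrophage markers and led by Arg1 and Slc40a1, it was 408 and 124 CPM. Sub-cluster 0 (336 control and 220 GA cells) was also led by Arg1 but stayed unnamed. Monocytes of sub-cluster 2, led by Vcan and Ly6c2, had 860 and 941 CPM. The interval lay below 0 in 9 and above 0 in 4 sub-clusters. Weighted to control shares the log2 ratio was -0.67.

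Hpgds, the hematopoietic prostaglandin D2 synthase (GRCm38 chr6:65117293-65144908, minus strand), had 4744 UMIs in control and 2066 in GA macrophages and monocytes, 119 CPM (115 to 122) and 62.8 CPM (60.1 to 65.6). The log2 ratio was -0.92 (-0.99 to -0.84), and the cells with a UMI were 54.6% and 38.0%. Thinned to 2000 UMIs the shares were 17.2% (15.4 to 19.03) and 10.5% (8.89 to 12.3), with 3 GA cells left out. The sub-clusters that carried it differed in share between the libraries. Hpgds was at 231.7 CPM over the sub-clusters named C1q macrophages, 47.6 CPM over those named Arg1 macrophages and 2.48 CPM over those named monocytes. Unnamed sub-clusters, among them the Arg1-led sub-cluster 0, are in none of these. C1q macrophages were 31.4% of control and 21.9% of GA cells of the class, monocytes 13.4% and 21.0%. Weighted to the control shares of UMIs, the log2 ratio of Hpgds was -0.16, and with a mitochondrial share of up to 10% it was -0.18. Its likest genes over the clusters were Gpr34 (r = 0.89), Amz1 (r = 0.86) and the complement gene C1qc (r = 0.85), and each of them was lower in GA in this class, C1qc at 1358 and 906 CPM.

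Ptger2 went the other way in this class, 12.2 CPM (11.2 to 13.3) in control and 22.2 CPM (20.6 to 23.9) in GA, a log2 ratio of 0.86 (0.69 to 1.03). The Ly6c2 monocytes of sub-cluster 2 held 30.8% of its UMIs. There 65 control and 310 GA UMIs gave 39.0 and 111 CPM, a log2 ratio of 1.504 (1.11 to 1.91). Weighted to control shares the class log2 ratio was 0.21, and with a mitochondrial share of up to 10% it was 0.15. Ptger4 was at 33.2 and 27.0 CPM, and Ptgfr had 0 UMIs in these 3059 cells. In the pathway list 2 of 17 genes were higher in GA and 0 lower, namely Akr1c18 (9 and 77 UMIs, log2 ratio 3.38, 2.38 to 4.56) and the phospholipase Pla2g2d (18 and 49 UMIs, log2 ratio 1.73, 0.92 to 2.60). Over all genes of this class 5.86% were higher and 2.63% lower.

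**Figure D5:**
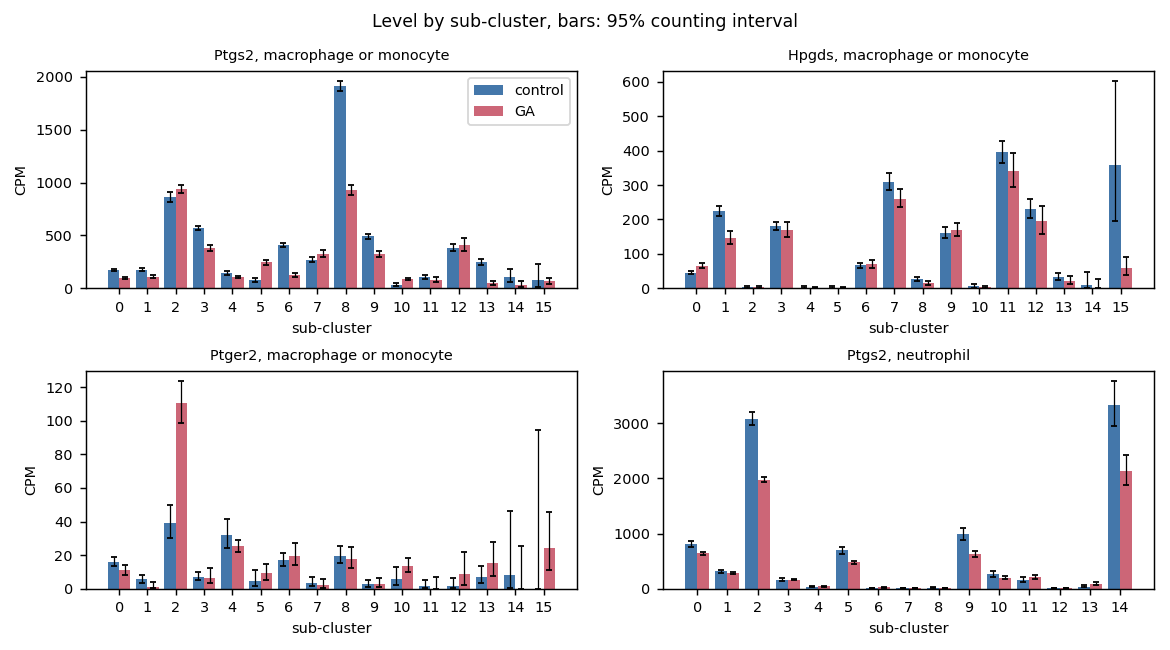
CPM of Ptgs2, Hpgds and Ptger2 in the 16 macrophage or monocyte sub-clusters and of Ptgs2 in the 15 neutrophil sub-clusters, control and GA libraries, with 95% counting intervals as error bars. Ptgs2 is highest in macrophage sub-cluster 8 (1912 and 930 CPM) and in neutrophil sub-clusters 2 and 14, and Ptger2 in monocyte sub-cluster 2 (39.0 and 111 CPM).

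In neutrophils (2087 control and 4434 GA cells, median 5097 and 7052.5 UMIs) 5 members had at least 50 UMIs, 0 passed the 2-fold limit and all 5 were lower in GA. In the same cells 3.33% of 10912 genes passed (0.412% higher and 2.91% lower), and the median log2 ratio was -0.22 over the members and -0.16 over all genes. Ptgs2 was at 374 CPM (365 to 384) in control and 275 CPM (270 to 280) in GA, a log2 ratio of -0.44 (-0.49 to -0.40). It marked mature cells, with 691 CPM over mature and 17.5 CPM over immature sub-clusters. Sub-cluster 2, led by Clec4n, Egr3, Egr2 and Ccl4, held 48.0% of the UMIs at 3088 CPM in control and 1980 CPM in GA. The interferon-responding sub-cluster 14 (Cxcl10, Ifit1) had 3337 and 2142 CPM.

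Ptgs1 was arranged the opposite way in neutrophils, at 44.6 CPM over immature and 12.5 CPM over mature sub-clusters. Between the libraries it was 41.1 CPM (38.0 to 44.3) in control and 29.5 CPM (27.9 to 31.1) in GA. Ptges (15.98 and 13.7 CPM), Ptger4 (27.7 and 24.4 CPM) and Ptger2 (13.5 and 12.7 CPM) differed less, and the interval of Ptger2, -0.31 to 0.16 on the log2 scale, included 0. Of 15 pathway genes with enough UMIs 0 were higher and 2 lower in GA, the synthase Prxl2b (26 and 27 UMIs, log2 ratio -1.38) and the prostaglandin D2 receptor Ptgdr (24 and 26 UMIs, log2 ratio -1.32), in a list with a median of -0.27. Over all genes of neutrophils 0.412% were higher and 2.91% lower.

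The genes most like Ptgs2 over the 35 clusters were Dusp1 (r = 0.91), an immediate early phosphatase gene, Piwil2 (r = 0.87) and Ptgs2os (r = 0.86), the RNA transcribed antisense from its own locus. Dusp1 did not share the differences of Ptgs2 between the libraries: it was at 656 and 686 CPM in macrophages and monocytes, at 665 and 660 CPM in neutrophils, and at 270 and 423 CPM in mesenchymal cells, control first. The strand setting of the counting is not given in the sources used here, so reads of Ptgs2 and Ptgs2os may not be fully told apart. Ptgs2os had 32.9 and 29.2 CPM in mesenchymal cells.

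Smaller classes held some of the highest levels of single members. In basophils (27 control and 31 GA cells) Ptgfr was at 75.6 CPM (47.9 to 113) in control and 172 CPM (133 to 218) in GA, from 23 and 67 UMIs, a log2 ratio of 1.19 (0.48 to 1.94). It was 1 of 2 members with enough UMIs that passed the limit, where 3.87% of 2145 genes did (2.47% higher in GA). After thinning, which leaves few UMIs in so few cells, the Ptgfr log2 ratio was 0.62. As many cells held it in both libraries, 11 of 27 and 11 of 31, and the 5 highest cells carried 69.6% and 77.6% of the UMIs. In neutrophils 0.0479% of control and 0.0677% of GA cells held a Ptgfr UMI. Ptgs2 in basophils was at 184 and 357 CPM, with 2 GA cells holding at least 50% of the GA UMIs, and its log2 ratio of 0.95 was 0.26 after thinning. All 8 control cells of the mast class held Hpgds, with 46 UMIs (655 CPM, 479 to 873). The 5 GA cells of that class are not compared, since the mast markers summed to 111171 CPM in its control cells but 4041 CPM, with 2 of 6 at 0, in its GA cells, near the 3026 CPM of GA basophils.

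In dendritic cells (323 control and 165 GA cells) 1 of 5 members passed the limit, against 3.29% of 9216 genes (1.57% higher and 1.71% lower). Hpgds had 303 and 81 UMIs, 49.2 CPM (43.8 to 55.0) in control and 24.2 CPM (19.3 to 30.1) in GA, a log2 ratio of -1.02 (-1.39 to -0.66), and of -0.79 with no doublets removed. Ptgs2 followed at 348 and 180 CPM (log2 ratio -0.95). Ptger4 had its highest level among classes of over 20 cells per library here, 80.3 CPM in control and 77.2 CPM in GA. In the pathway list the reductases Cbr2 (14.4 and 35.03 CPM) and Ptgr1 (4.54 and 11.1 CPM) were 2 of 14 genes called, both higher in GA.

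Ptgs1 is also the cyclooxygenase of platelets, where it supplies thromboxane. It reached its highest level in megakaryocytes or platelets, 460 CPM (369 to 566) in 23 control cells and 181 CPM (144 to 225) in 46 GA cells. The class differed in other markers too, from control to GA: its own from 19045 to 9137 CPM, erythroid from 15664 to 152 CPM, mesenchymal from 3495 to 129 CPM and neutrophil from 2942 to 564 CPM, and their part was not tested. The Ptgs1 log2 ratio of -1.34 stood in a class of shallow cells in which 45.6% of genes passed the limit, and Pla2g4a (-1.94) and Tbxas1 (-2.54) were the 2 of 3 pathway genes that did. In HSC or progenitor cells (175 control, 372 GA) it was at 40.9 CPM (36.0 to 46.2) and 22.9 CPM (20.8 to 25.2), a log2 ratio of -0.83. The thromboxane synthase Tbxas1 (57.2 and 22.7 CPM) and the thromboxane receptor Tbxa2r (6.34 and 1.86 CPM) were the 2 of 16 pathway genes called there, both lower in GA, where 3.36% of all genes passed in either direction and 2.61% were lower. The 4 megakaryocyte markers summed to 96.5 and 14.6 CPM in these cells, and their part in the Ptgs1 values was not tested.

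Ptgs2 passed the limit in erythroid cells (75 and 5 UMIs, 34.3 and 3.52 CPM, with 3.62% of genes past the limit). There the macrophage or monocyte markers summed to 179 and 19.7 CPM and the dendritic markers to 199 and 31.0 CPM, both from classes rich in Ptgs2, and their part was not tested. It also passed in pericytes and smooth muscle cells (106 and 2 UMIs, 16.4% of genes past the limit). In these cells, where the pathway gene Ptges3 also passed (log2 ratio -1.25), the median depth was 20021.5 UMIs in control and 717 in GA cells. Hpgd had its highest level in the unnamed cluster led by Cd5l, Fcna and Vcam1, 624 CPM (547 to 709) in 26 control and 645 CPM (576 to 720) in 38 GA cells, where Hpgds was at 381 and 411 CPM.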

How the data were processed

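The 10x libraries of GA and control were analysed. Per the file headers, Cell Ranger 7.0.1 made the tables, and the labels name mm10 as genome. The authors deposited raw UMI counts of 32285 genes for 8718 control and 9322 GA barcodes (214993030 and 182949385 UMIs), with the mice of a group pooled. The count limits were 500 to 140000 UMIs, 200 to 9500 genes and up to 15% mitochondrial UMIs. Scrublet marked 37 control and 0 GA cells by its own threshold, which had not worked, so the cells with the highest scores (524 and 653) were removed. Pearson residuals of 2000 variable genes, without the members and pathway genes, gave 50 components, correction between the libraries by a reimplementation of the Harmony algorithm, 15 neighbours and Leiden clusters at resolution 1 (scanpy 1.11.5). Clusters were named by their marker scores, at least 3 markers 2-fold up in 10% of cells. This naming rule and the split of mast from basophil cells were set after seeing the clusters. CPM is UMIs per 1000000 UMIs of the class. Weighting to control shares used the share of each sub-cluster in the control UMIs of its class. Levels have exact Poisson, shares exact Clopper-Pearson and ratios exact conditional binomial 95% intervals, which cover counting error only. With 1 library a group there was no replicate error and no p-value. The ratio step was tested on simulated data. Named genes were the members, pathway genes past 2-fold and at least 50 UMIs, and the 3 genes most like Ptgds, Ptgs2 and Hpgds over clusters of at least 50 cells; other genes named are markers, leading genes of a cluster or genes of the pathway list chosen after their values were seen. The members and lists were chosen with earlier results of these data known. Positions are from GENCODE for GRCm38. The alternatives were other filters on cells, clustering, weighting of cells and scaling. After each other filter the cells were clustered and named again, so the class of a cell could change too.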

Additional observations from a re-analysis of the deposited data

Results flagged for a closer look

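Members with at least 50 UMIs whose GA to control ratios lay on opposite sides of 0 in a pair of classes, with counting intervals excluding 0, were picked out. Lower limits on the size of the ratio and of the class also applied. Each class below 0 was set only against the class with the highest ratio. Opposed pairs with smaller ratios were left out, such as Ptgs2 at 0.04 in mesenchymal cells and -0.72 in macrophages or monocytes. With 1 library per group the difference between classes was not tested. Ptgs1 was higher in GA in mesenchymal cells (log2 ratio 1.37) and lower in HSC or progenitor cells (-0.83) and in macrophages or monocytes (-0.74), differences of 2.21 and 2.12 on the log2 scale. Weighted to control sub-cluster shares, Ptgs1 was 0.91 in mesenchymal cells and -0.23 in macrophages or monocytes. Hpgd was higher in GA in mesenchymal cells (0.85) and lower in dendritic cells (-0.85) and in macrophages or monocytes (-0.71), differences of 1.70 and 1.56. With a mitochondrial share of up to 10% the macrophage value of Hpgd was 0.14, which ends that opposition. Ptger2 was higher in GA in macrophages or monocytes (0.86) and lower in mesenchymal cells (-0.92), a difference of 1.78. The first was 0.15 with a mitochondrial share of up to 10% and 0.21 weighted to control sub-cluster shares, and the second -0.16 as a mean over cells.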

How the results depend on the processing

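The Ptgds log2 ratio in the mesenchymal lineage was negative under all 13 alternatives. The set was chosen with that low ratio known, and the alternatives recount the same 2 libraries, so the kept sign is a description. The ratio was -2.58 as a mean over cells of each cell's CPM and -2.46 with each cell thinned to 2000 UMIs. It was -3.09 with GA weighted to control sub-cluster shares. Without the cells of at least 10 Ptgds UMIs, an alternative chosen after seeing the data, it was -1.30. In the weighted value 1 GA cell stands for the whole of sub-cluster 12. The count of members past 2-fold in that lineage was 2 and became 4 after thinning (Ptger2 and Ptger4 added) and 3 with no doublets removed or without the 5 cells with the most UMIs of the gene in each library (Ptger2 added). In macrophages or monocytes it was 0 and became 1 at Leiden resolution 2 (Ptger2), 2 after thinning (Ptges and Ptger2) and 1 relative to the class median (Hpgds). In neutrophils it was 0 and became 1 with no doublets removed (Hpgd, 74 UMIs). Without the mesenchymal sub-cluster led by neutrophil genes, also an added alternative, the lineage count stayed at 2. The weighting to control shares was added after seeing the data for members other than Ptgds. It is not part of these counts, and under it the Ptgs1 log2 ratio in the mesenchymal lineage was 0.91, under the 2-fold limit. Of 30 log2 ratios, 23 kept their sign under every alternative and 7, none of them past 2-fold, did not. Hpgds in macrophages or monocytes ranged from -1.02 to -0.16. No paired analysis was possible because each group has 1 library. Depth limits the rare members most: 0 Ptgfr UMIs in 1752 control macrophages or monocytes allow a share of up to 0.171% of cells with a UMI, by the limit of 3 counts (0.210% by Clopper-Pearson).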
